A study of Mus musculus with 2 samples.

Results

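Neurog1, Neurod1, Nhlh1, Nhlh2, Insm1, Hes1, Hes5 and Hes6 were listed by name as neurogenic basic helix-loop-helix (bHLH) genes and Notch target genes. The rule takes no measured value, although the genes were listed with earlier results of these data known. All 8 were found among the 21755 protein-coding genes annotated by GENCODE release M21 on the 20 chromosomes analysed, and each was located by its transcription start site (TSS). The data were in situ Hi-C contacts, that is, counts of DNA ends that were close enough inside fixed nuclei to be ligated together. The nuclei were those of FACS-sorted mature olfactory sensory neurons of adult mice of mixed sex, taken from the olfactory epithelium, in which Ldb1 was conditionally deleted by OMP-Cre. Each of 2 biological replicates held 1000000 cells fixed in 1% formaldehyde and cut with DpnII. All animals belonged to this 1 group, their strain is given in the labels as not specified, and no control was analysed here.

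The readout was 1 list of 7610 boundaries, each a 5 kb bin of the mouse build GRCm38, called by the authors on the pooled contacts of both replicates. A boundary is a position that few contacts cross, and its strength is a score given by the authors, classed as strong from 0.5 upwards and as weak below. The interval between a pair of neighbouring boundaries is called a domain here, and its length is the distance between the facing edges of both bins. Pooling leaves no replicate error and no test between samples, and the number of contacts behind each boundary is unknown. The values below describe this one list, to the nearest 5 kb bin, and a boundary list cannot show which cells were sorted or which genes they expressed.

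In the olfactory epithelium new neurons arise throughout life from basal progenitors. Proneural bHLH proteins bind DNA as dimers and drive progenitors towards a neuronal fate. Neurog1 commits progenitors to this fate, Neurod1, Nhlh1 and Nhlh2 act during differentiation, and the zinc finger protein Insm1 promotes the divisions that yield neurons. Notch signalling opposes them: a ligand on one cell leads to cleavage of the Notch receptor on its neighbour, and the freed receptor fragment joins Rbpj on DNA to activate the repressor genes Hes1 and Hes5. Hes6 is the unusual member of its family, as it counters Hes1 and favours differentiation. Omp marks neurons that have already matured, so OMP-Cre acts after the stage at which these genes are chiefly used.

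None of the 8 TSSs stood at a boundary, defined as lying in a boundary bin or within 10 kb of one (0 of 8, exact 95% binomial interval 0 to 36.9%). Of all protein-coding TSSs 14.3% did. With 8 genes that share falls inside the interval, so a depletion was not detectable. Distances to the nearer boundary ran from 11.9 kb at Insm1 to 166 kb at Hes1, with a median of 66.2 kb against 56.6 kb for all protein-coding genes. The domains were 85 to 510 kb long, with a median of 235 kb against 270 kb for the 20713 protein-coding genes whose TSS lay between a pair of boundaries outside any bin. Of the 8 domains 7 joined a strong and a weak boundary, and that of Hes5 was closed by strong boundaries on both sides.

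**Figure D1:**
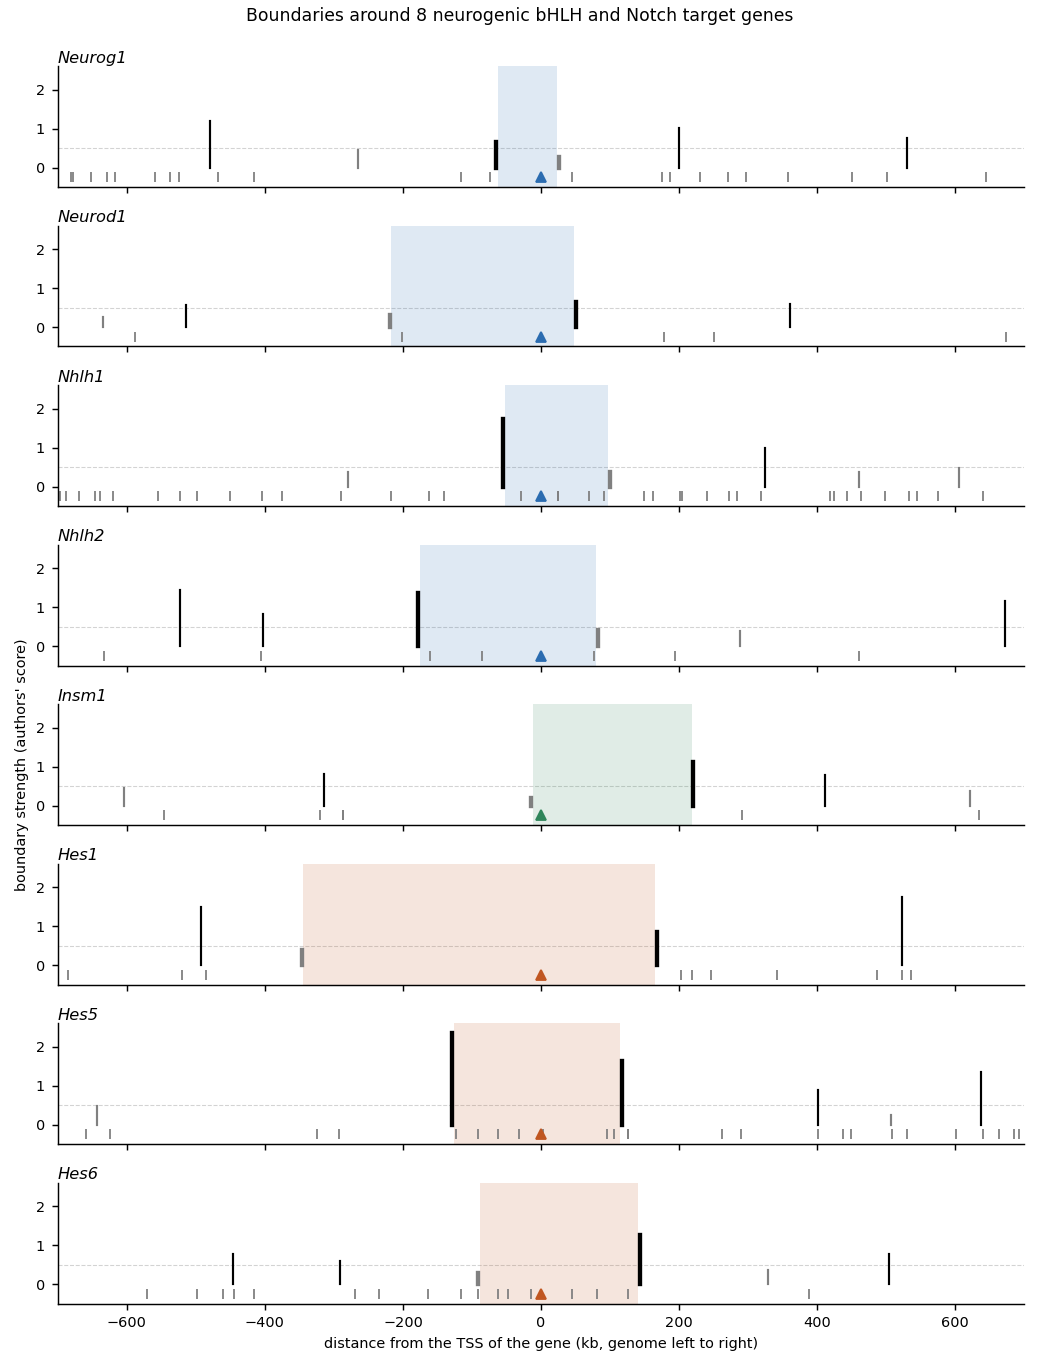
Boundaries within 700 kb of the TSS of each gene (triangle at 0; blue for bHLH activators, green for Insm1, orange for Hes genes). Stems mark boundary bins at their distance in kb (x axis) with their strength (y axis), black when strong and grey when weak, and thick for those flanking the gene; shading is the domain, ticks are TSSs of other protein-coding genes, and the dashed line is the strong threshold of 0.5. The shaded domain of Neurog1 spans 85 kb and that of Hes1 510 kb.

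Neurog1, the commitment factor, lay in the shortest domain of the 8. Its TSS (chromosome 13, 56252163, minus strand) was 62.2 kb from a strong boundary on its left (56185001 to 56190000, strength 0.658) and 22.8 kb from a weak one on its right (56275001 to 56280000, strength 0.264). Both bins lay between protein-coding genes. The nearest TSSs belonged to Tifab, 6.12 kb from the left bin, and to the chemokine gene Cxcl14, 16.6 kb from the right one. The domain was 85 kb long, and 0.323% of protein-coding genes had a shorter one. No other protein-coding TSS lay in it, which left Neurog1 with 1 pseudogene and the long non-coding RNA 4930550C17Rik. The short domain rested on the weak right boundary: between strong boundaries alone the interval was 260 kb long and took in 3 more protein-coding genes.

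Neurod1, which acts downstream of the neurogenins, had the weakest strong flank of the group. Its TSS (chromosome 2, 79456751, minus strand) stood 48.3 kb from a strong boundary on its right (79505001 to 79510000, strength 0.643) and 217 kb from a weak boundary on its left (79235001 to 79240000, strength 0.309). The domain measured 265 kb, close to the median of all protein-coding genes. It also held the TSSs of Itga4, an integrin subunit gene, at 201 kb, and of Cerkl, a ceramide kinase-like gene. GENCODE places the outermost Cerkl start 0.034 kb from that of Neurod1, whereas in RefSeq the 2 starts are 27.6 kb apart, so the close pair depends on the annotation. No boundary within 500 kb of Neurod1 was stronger than 0.643, the lowest such maximum among the 8 genes.

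Nhlh1 and Nhlh2 are close paralogues on different chromosomes. Nhlh1 (TSS at chromosome 1, 172057573, minus strand) was 52.6 kb from a strong left boundary (172000001 to 172005000, strength 1.74) that overlapped an exon of Vangl2. On its right a weak boundary (172155001 to 172160000, strength 0.369) lay 97.4 kb away in an intron of Dcaf8. Nhlh2 (TSS at chromosome 3, 102010076, plus strand) had the same arrangement: a strong left boundary at 175 kb (101830001 to 101835000, strength 1.36) over an exon of Mab21l3, and a weak right boundary at 79.9 kb (102090001 to 102095000, strength 0.414) in an intron of Casq2. For both genes the strong side was thus the left one, but it was downstream of Nhlh1 and upstream of Nhlh2, because the genes are transcribed in opposite directions.

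The 2 paralogues differed in their company. The domain of Nhlh1 was 150 kb long and held 5 other protein-coding genes, and that of Nhlh2 was 255 kb long and held 3. Copa and Ncstn started 25.0 and 25.2 kb from Nhlh1. Copa encodes a coatomer subunit, and Ncstn encodes nicastrin, a subunit of the gamma-secretase that cleaves Notch receptors. Vangl2, a planar cell polarity gene, was 29.1 kb away, the peroxisome gene Pex19 69.2 kb and Dcaf8 90.5 kb. Nhlh2 shared its domain with the calsequestrin gene Casq2 at 76.3 kb, the transporter gene Slc22a15 at 85.6 kb and Mab21l3 at 161 kb. The domain of Nhlh1 held an enhancer of RefSeq's functional elements (1 of 8 domains, beside 9.08% of protein-coding genes and 8.17% of all domains). This element (VISTA mm1677, 172015769 to 172018782) was 38.8 kb from the TSS of Nhlh1 and lay inside the body of Vangl2. It is recorded as active in the neural tube, hindbrain, midbrain, forebrain, limb and cranial nerve of transgenic animals. Which gene it serves was not tested.

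Of the 8 genes, Insm1 had its TSS closest to a boundary and farthest from any other protein-coding TSS. Its TSS (chromosome 2, 146221921, plus strand) was 11.9 kb from a weak left boundary (146205001 to 146210000) in an intron of the cilia gene Cfap61. At a strength of 0.207 that boundary was among the weakest in the list, with 2.13% of all boundaries below it. The right boundary, 218 kb away (146440001 to 146445000, strength 1.13), was strong and overlapped an exon of Ralgapa2, a gene for a Ral GTPase-activating protein subunit. The ratio of the stronger to the weaker flank was 5.44, the highest of the 8. No other protein-coding TSS lay in its 230 kb domain, although the bodies of Cfap61 and Ralgapa2 reached into it. The nearest other protein-coding TSS was 287 kb from that of Insm1, and 97.0% of protein-coding genes had a nearer one.

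Hes1, the main effector of Notch in many progenitors, occupied the longest domain. Its TSS (chromosome 16, 30064384, plus strand) was 344 kb from a weak left boundary (29715001 to 29720000, strength 0.377) and 166 kb from a strong right boundary (30230001 to 30235000, strength 0.849). Neither bin overlapped a protein-coding gene. The 510 kb domain was longer than those of 84.2% of protein-coding genes. Hes1 was its only protein-coding TSS, beside 9 long non-coding RNA genes, 2 pseudogenes and 1 ribosomal RNA gene. The nearest protein-coding TSS was 203 kb from that of Hes1, beyond the right boundary.

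Hes5, a Notch effector of neural progenitors, stood apart from the other 7 in its flanks. Its TSS (chromosome 4, 154960923, plus strand) lay near the middle of a 240 kb domain, 126 kb from the left boundary (154830001 to 154835000) and 114 kb from the right one (155075001 to 155080000). Their strengths were 2.35 and 1.63, above 99.0% and 93.7% of all boundaries, and these were the highest left and right values of the group. The left bin was between genes, 2.46 kb from the TSS of Ttc34, and the right bin overlapped an exon of Rer1. The domain held 7 other protein-coding genes, the most of the 8. The nearest were Pank4, of the pantothenate kinase family, at 3.20 kb, Tnfrsf14, which encodes a receptor of the tumour necrosis factor family, at 32.4 kb, and Fam213b, which encodes a prostaglandin synthase, at 61.8 kb.

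Hes6 (TSS at chromosome 1, 91414038, minus strand) was 89.0 kb from a weak left boundary (91320001 to 91325000, strength 0.291) and 141 kb from a strong right boundary (91555001 to 91560000, strength 1.27). The left bin contained the TSS of Espnl and an exon of Scly, and the right bin overlapped an exon of Asb1. Its 230 kb domain was as long as that of Insm1 but held 6 other protein-coding genes. The closest was the phosphatase gene Ilkap at 15.2 kb, followed by Per2, a repressor of the circadian clock, at 45.3 kb and Erfe, the gene of the iron-regulating hormone erythroferrone, at 47.6 kb. Klhl30 lay at 63.0 kb, Traf3ip1, a gene of ciliary transport, at 80.6 kb and Asb1 at 127 kb.

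The pairing of a strong with a weak flank was the commonest arrangement among genes in general. It applied to 7 of the 8 genes (87.5%, exact 95% binomial interval 47.3 to 99.7%) and to 49.1% of protein-coding genes with a domain. Both flanks were strong at 1 of 8 (exact interval 0.316 to 52.7%), against 37.2% of protein-coding genes. Both were weak at 0 of 8 (exact interval 0 to 36.9%), against 13.7%. The weaker flanks had a median strength of 0.339 beside 0.406 for all such genes, and the stronger flanks 1.20 beside 0.949. Within a gene the ratio of both flanks ran from 1.44 at Hes5 to 5.44 at Insm1, with a median of 2.89 against 1.98. The stronger boundary was upstream of the gene at 4 of 8 (exact interval 15.7 to 84.3%), namely Neurod1, Nhlh2, Hes5 and Hes6, and at 51.5% of protein-coding genes.

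**Figure D2:**
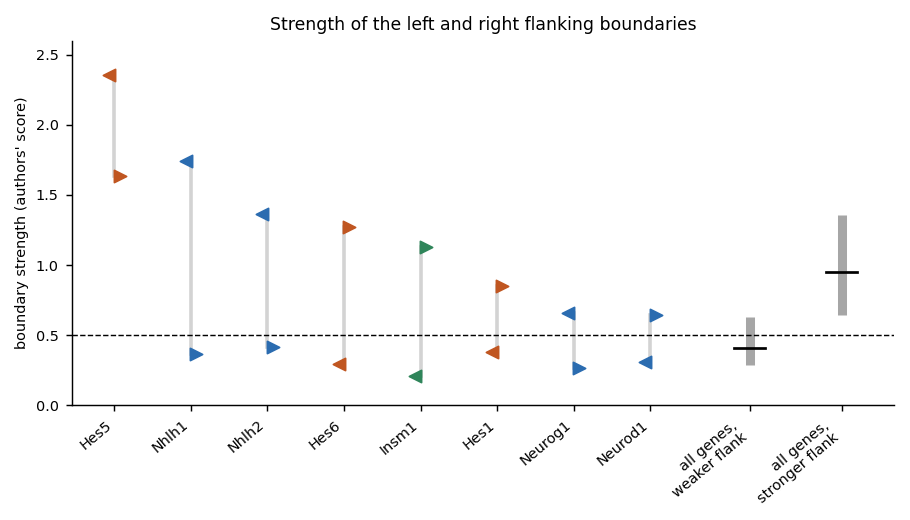
Strength (y axis, authors' score) of the left (left-pointing triangle) and right (right-pointing triangle) flanking boundary of each gene, ordered by the stronger one, with the strong threshold of 0.5 dashed. Bars at the right give the interquartile range and the median of the weaker and stronger flank over 20713 protein-coding genes; the flanks of Hes5 are both strong, and the others straddle the threshold.

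By strength of the stronger flank the order was Hes5 (2.35), Nhlh1 (1.74), Nhlh2 (1.36), Hes6 (1.27), Insm1 (1.13), Hes1 (0.849), Neurog1 (0.658) and Neurod1 (0.643). With 1 pooled list there is no spread by which neighbours in this order could be told apart. Of the 16 flanking bins 6 overlapped an exon of a protein-coding gene, 3 lay wholly in introns and 7 lay between genes, compared with 32.8%, 13.4% and 53.9% of all boundaries. Exons were overlapped by 5 of the 9 strong flanks (exact interval 21.2 to 86.3%) and by 1 of the 7 weak ones (0.361 to 57.9%). Over the whole list they were overlapped by 39.9% of strong and 24.8% of weak boundaries.

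The group divided into genes with and without company in their domains. Neurog1, Insm1 and Hes1 were each the only protein-coding TSS there (3 of 8, 37.5%, exact interval 8.52 to 75.5%), and 9.47% of protein-coding genes were. The other 5 shared their domains with 2 to 7 genes, and the median over all 8 was 2.5 other genes, against 5 for protein-coding genes in general. Solitary and accompanied genes overlapped in domain length, since the solitary domains of 85, 230 and 510 kb included both the shortest and the longest.

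**Figure D3:**
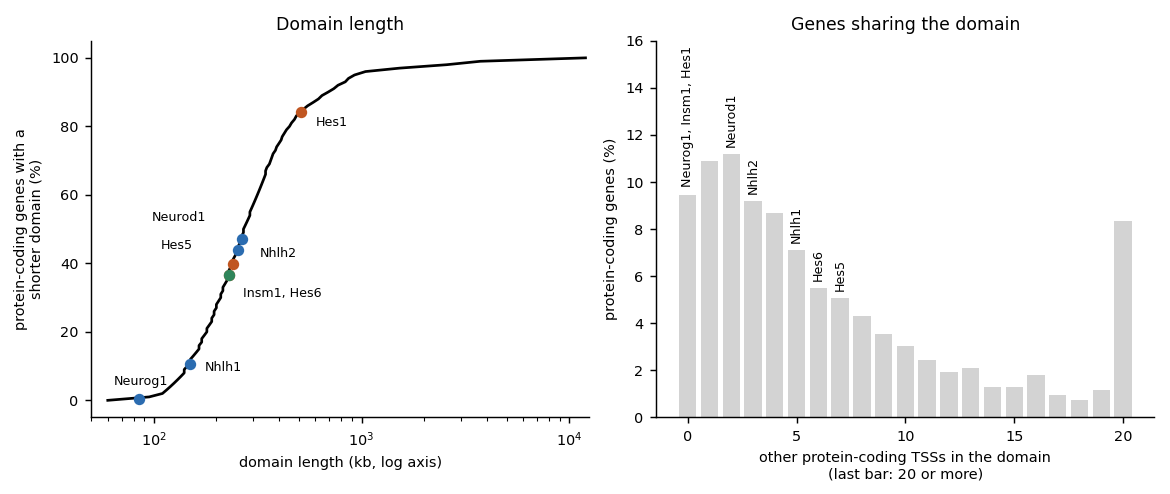
Left, cumulative share of 20713 protein-coding genes (y axis, %) by domain length (x axis, kb, log scale), with the 8 genes marked on the curve. Right, share of those genes (bars, %) by the number of other protein-coding TSSs in the domain, with the 8 genes named at their number; 3 of them stand at 0, and Hes5 is highest with 7.

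Removal of the weak boundaries changed the lengths unequally. Between strong boundaries alone the 8 intervals ran from 240 to 845 kb with a median of 480 kb, beside 470 kb for all protein-coding genes. Hes5 kept its 240 kb domain and thereby moved from the middle of the group to its lower end. Nhlh2 reached 845 kb across 2 weak boundaries, an interval that also held Vangl1, a paralogue of the Vangl2 found beside Nhlh1. Hes1 gained Opa1, a gene of mitochondrial fusion, as its only protein-coding partner in 655 kb. Nhlh1 went from 5 to 13 other genes and Hes6 from 6 to 11, while Neurod1 kept its 2. The median number of other protein-coding genes was 4 on this scale, beside 8 for all protein-coding genes. None of the 8 genes remained alone, but the share of all protein-coding genes alone on this scale is not given here.

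CTCF halts the loop extrusion by cohesin, often at paired sites whose motifs point towards each other. Its core consensus, searched on both strands, was found in or within 10 kb of 7 of the 16 flanking bins (43.8%, exact 95% binomial interval 19.8 to 70.1%), and of 24.4% of all boundaries. By class it was near 5 of 9 strong flanks, beside 32.0% of all strong boundaries, and near 2 of 7 weak flanks, beside 15.9% of all weak ones. The 8 matches counted here are printed. Each lay 2.37 to 9.05 kb from its bin, and windows away from boundaries were not compared. Each is written 5′ to 3′ on its own strand, from GRCm38, with the 12 consensus bases in capitals and 14 bases on each side.
Neurog1 left flank, chr13:56197676-56197715, plus strand: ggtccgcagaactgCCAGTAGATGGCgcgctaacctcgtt
Nhlh2 left flank, chr3:101822214-101822253, plus strand: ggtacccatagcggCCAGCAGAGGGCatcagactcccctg
Insm1 left flank, chr2:146214908-146214947, plus strand: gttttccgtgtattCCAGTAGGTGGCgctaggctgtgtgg
Insm1 right flank, chr2:146449945-146449984, plus strand: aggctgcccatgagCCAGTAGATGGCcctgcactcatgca
Hes1 left flank, chr16:29729032-29729071, plus strand: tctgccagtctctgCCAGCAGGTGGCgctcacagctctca
Hes5 left flank, chr4:154825941-154825980, minus strand: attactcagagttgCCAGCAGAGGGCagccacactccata
Hes5 left flank, chr4:154837358-154837397, plus strand: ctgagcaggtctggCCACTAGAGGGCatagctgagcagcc
Hes5 right flank, chr4:155069409-155069448, plus strand: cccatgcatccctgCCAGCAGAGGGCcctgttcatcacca

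The left flanks of Neurog1, Nhlh2, Insm1, Hes1 and Hes5 each had a match on the plus strand, which points towards the domain. The Nhlh2 match lay outside its domain, 7.76 kb beyond the bin. The left flank of Hes5 also had a match on the minus strand, which points outward. No right flank had a match on the minus strand. Matches pointing inward were thus at 5 of 8 left flanks, beside 13.5% over all domains, and at 0 of 8 right flanks, beside 13.4%. Both sides together gave 5 of 16 flanks (31.3%, exact interval 11.0 to 58.7%), beside 13.5% of all domain flanks. No domain of the 8 had an inward match at both ends, and 2.19% of all 7590 domains did. The match at the weak left boundary of Insm1 lay inside the domain, 4.92 kb from the bin and 6.999 kb from the TSS of Insm1. The matches at Nhlh2 and at the left flank of Hes5 were in soft-masked repeats. No match lay within a flanking bin itself, where 6.29% of all boundaries had one. With a looser form, which allows any base at the degenerate positions of the consensus, 12 of 16 flanks had a match, beside 76.1% of all boundaries. A match is a string of bases, and binding of CTCF was not measured.

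The 8 domains were poor in repeats. Soft-masked bases, which mark interspersed and simple repeats, made up 19.1 to 26.8% of each domain, against a median of 30.7% over protein-coding genes. All 8 lay below that median, and 7 of 8, all but Nhlh1, lay below the lower quartile of 26.3%, which 25% of genes do by definition. The lowest shares were those of Insm1 (19.1%), Hes6 (20.5%) and Hes5 (22.7%). In a window of 100 kb on each side of the TSS, which takes nothing from the boundaries and was added after the domain values had been seen, the shares were 19.1 to 29.7%, with 8 of 8 below the median of 30.7% and 6 of 8 below the lower quartile. This is a property of the sequence around these genes and not of the Hi-C signal. Domain GC content varied more, from 39.96% at Neurod1 to 52.6% at Hes5, around the median of 44.1% for protein-coding genes.

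The promoters were read for the letters that bHLH, Hes and Rbpj proteins are known to bind. RefSeq promoter sequences of GRCm38.p6, 250 bases before to 50 after the start, were matched for 6 of the 8 genes, with a pair of alternative starts for Hes6. Hes1 and Insm1 had no entry. Hes6 was counted when either of its promoters held a motif, whereas the background shares are per promoter. The E box CANNTG, the general bHLH site, was present in 6 of 6 and in 68.6% of 20061 protein-coding promoters. Its form CAGCTG was found at Nhlh2 and Hes6 (2 of 6, background 15.8%), and CACGTG at none of the 6 (background 8.06%). CACNAG, the N box bound by Hes proteins, was found at 3 of 6 (Neurod1, Nhlh2 and Hes6, background 41.9%), or 2 of 6 with the Hes6 start used elsewhere in the text. TGGGAA, the core recognised by Rbpj, was found at Nhlh1, Nhlh2 and Hes5 (3 of 6, background 24.3%). TATAAA, searched on the gene's strand, occurred only at the other start of Hes6 (1 of 6, background 7.93%). All motifs but TATAAA were searched on both strands, and CAGCTG and CACGTG are also counted under CANNTG.

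The promoters of Hes5 and Hes6 are shown because they set a Notch target beside the family member that counters Hes1. Only the 250 bases before the start are given, on the gene's strand, with matches to the Rbpj core, the E box and the N box in capitals.
Hes5, chr4:154960673-154960922, plus strand: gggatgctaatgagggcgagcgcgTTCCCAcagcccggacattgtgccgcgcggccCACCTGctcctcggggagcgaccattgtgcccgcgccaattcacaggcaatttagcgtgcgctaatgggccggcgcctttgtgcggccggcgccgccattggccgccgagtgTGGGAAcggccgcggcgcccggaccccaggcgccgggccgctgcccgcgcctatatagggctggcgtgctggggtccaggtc
Hes6, chr1:91414039-91414288, minus strand: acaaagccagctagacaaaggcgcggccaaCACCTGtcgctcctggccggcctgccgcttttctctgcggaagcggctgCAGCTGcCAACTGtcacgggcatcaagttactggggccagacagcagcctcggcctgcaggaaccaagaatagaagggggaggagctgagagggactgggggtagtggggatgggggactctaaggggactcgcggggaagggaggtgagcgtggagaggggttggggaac
The Hes5 sequence held a pair of TGGGAA matches on opposite strands, beginning 226 and 82 bases before the start, and 1 E box. The Hes6 sequence held 3 E boxes, 1 of them CAGCTG, and no TGGGAA. None of these promoters lay within 10 kb of a boundary, so the boundary list carries no measurement at them.

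The remaining genes of the pathway gave the wider setting. A list of 59 other Notch pathway and proneural bHLH genes had 10 TSSs at a boundary (16.9%), beside 14.3% of protein-coding genes. Its median domain length was 250 kb and its median distance to the nearer boundary 66.7 kb, close to the 235 kb and 66.2 kb of the 8 genes. Strong and weak flanks were paired at 27 of the 57 with a domain (47.4%), and 9 of 57 were alone in theirs (15.8%).

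Among ligands, 2 of 6 were at a boundary: Dll1 at 3.13 kb (strength 0.881) and Jag1 at 3.36 kb (0.456). The longest ligand domains were those of Dll1 (500 kb) and Dll4 (465 kb). Of the 4 receptors Notch4 was at a boundary (9.27 kb, strength 1.22), and Notch1 was next at 66.7 kb, while Notch3 (285 kb) and Notch4 (265 kb) had the longest domains. Of 20 genes of receptor processing and signalling 1 was at a boundary, the presenilin gene Psen2 at 8.44 kb (strength 1.57), and Numb, an inhibitor of Notch, followed at 13.1 kb. The protease gene Adam17 lay in a domain of 3175 kb with no assembly gap, the longest of the list, and the coactivator gene Maml2 in one of 640 kb, of which 14.3% was assembly gap.

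Of the 8 genes listed in the pathway as Notch targets 4 were at a boundary, beside 14.3% of protein-coding genes. This was the highest share of any role. Hes1, Hes5 and Hes6 were not at a boundary, but with so few genes the groups cannot be told apart. Hes3 lay in a boundary bin (strength 0.538), Nrarp, a feedback inhibitor of Notch, 0.758 kb from one (0.431), Hes7, of the segmentation clock, at 4.60 kb (0.307) and Hey2 at 7.20 kb (0.772). Hey1 (320 kb) and Hey2 (310 kb) had the longest domains of the targets. The Hes family was therefore spread from 0 kb at Hes3 to 166 kb at Hes1. Hes2 and Hes3 are neighbours on chromosome 4, and the boundary that held the Hes3 TSS was the right flank of the 160 kb Hes2 domain. The domain of Hes7, at 85 kb, was as short as that of Neurog1 but held 6 other protein-coding genes.

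Of 13 other proneural bHLH genes 1 was at a boundary, the oligodendrocyte lineage gene Olig2 (5.46 kb, strength 0.526), followed by Neurog2 at 18.1 kb. Neurod6 lay in a domain of 425 kb, and the median domain length of the 13 was 220 kb. Among 7 dimer partners and inhibitors Tcf4, encoding an E protein, started in a boundary bin (0.661), and Id2, an inhibitor of bHLH dimers, lay 12.1 kb from one in a 780 kb domain. The domain of Tcf12, another E protein gene, measured 425 kb. Insm2, the paralogue of Insm1, was 89.4 kb from a boundary in a 365 kb domain closed by strong boundaries (0.821 and 1.04).

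**Figure D4:**
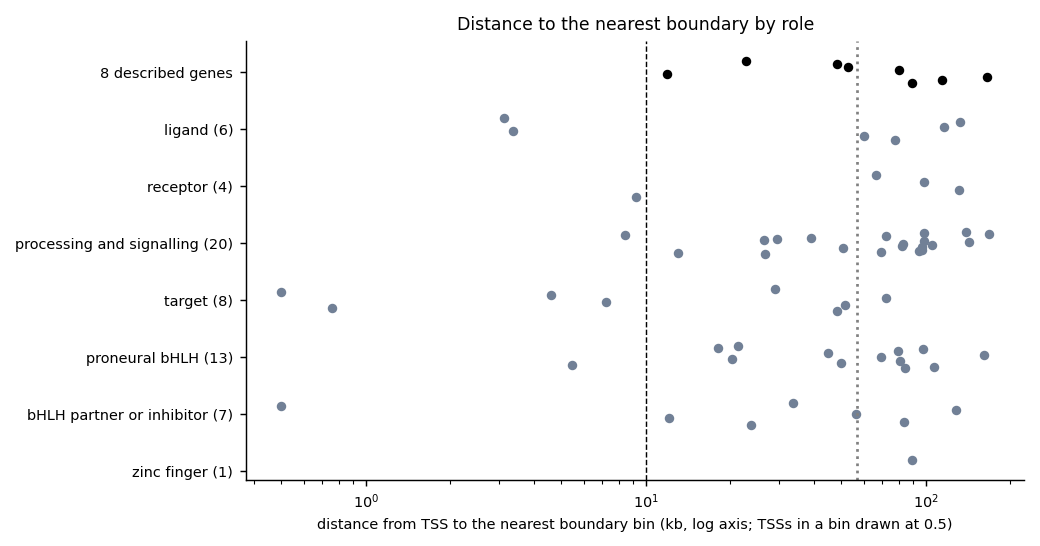
Distance from each TSS to the nearest boundary bin (x axis, kb, log scale; TSSs inside a bin drawn at 0.5 kb) for the 8 genes (black) and for 59 other pathway genes by role (grey). The dashed line marks 10 kb and the dotted line the median of 56.6 kb over protein-coding genes. No black point lies left of the dashed line, and 4 of the 8 genes in the target role do.

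Each of the 8 genes was also set beside the pathway gene whose domain was most like its own, by the distance over 4 percentiles (domain length, distance to the nearer boundary, and the strengths of the weaker and the stronger flank) among 57 genes. The closest likeness was between Hes1 and the ligand gene Dll4 (11.6 percentile points), whose domain measured 465 kb with flanks of 0.363 and 0.879. Nhlh1 was most like Ncstn (13.95), which shares its domain and hence both flanks. Neurog1 came closest to Atoh7 (19.2), Hes6 to Atoh1 (22.0), Nhlh2 to Mib2 (22.1), Neurod1 to Rfng (26.0) and Insm1 to Id4 (31.2). Hes5 had the least similar match, Notch1 (36.3), which was also enclosed by a pair of strong boundaries (1.04 and 1.32).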

How the data were processed

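Per the labels' design text, the authors merged both replicates into 1 contact matrix on GRCm38 and called boundaries on it, and the deposited strength is the score of that call. For the caller, the window and the mask, nothing is given in the sources used here. Since the score's scale is not stated, it was used only to describe boundaries within this list. The files' build and the reference build were both GRCm38, and no boundary passed the end of its chromosome.

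TSSs were the outermost gene starts of GENCODE M21, and sequence came from RefSeq's GRCm38.p6. Of 21755 protein-coding TSSs, 839 lay in a boundary bin and 203 outside the outermost boundaries, which left 20713 with a domain. The intervals, given for some of the shares, are exact 95% binomial intervals (counting error only). Those over flanks treat each flank as independent, although every domain gives a pair of them. No test was run, because 1 pooled list allows none. CTCF was searched by its core consensus. Placement and motif search were tested on simulated data. Scripts ran in Python 3.11.15 with pandas 2.3.3 and numpy 2.4.6, intervals came from scipy 1.17.1, and plots from matplotlib 3.10.9.

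The 8 genes, the pathway list and the rules were chosen with earlier results of these data known. All 8 genes were named. In each domain all other protein-coding genes were named where there were 6 or fewer, otherwise the 3 nearest, and in each pathway role the 2 genes nearest to a boundary and the 2 with the longest domains, except that 1 gene is not reported here. Genes named as the annotation of a flanking bin, the Hes family and the genes named from the strong-only domains of Nhlh2 and Hes1 were chosen after their values were seen.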

Additional observations from a re-analysis of the deposited data

How the results depend on the processing

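No paired analysis was possible because the 2 samples form a single group, and a list called on their pooled contacts allows neither to be omitted. Of 26 alternatives 13 left a value within 1.5 times of that reported, and the other 13 are given here. Windows set the count at boundaries. It was 2 of 8 genes within 25 kb (Insm1 and Neurog1), beside 26.5% of protein-coding genes, and 3 of 8 within 50 kb (45.3%). It was 0 within 5 kb (10.1% of protein-coding genes), within the bin (3.86%) and within 10 kb of a strong boundary (9.30%). With any annotated start it was also 0. The pathway list had 16 genes within 25 kb. With strong boundaries alone the median domain was 480 kb (470 kb for all protein-coding genes) and the median number of other genes 4 (8 for all). The median distance to the nearer strong boundary was 128 kb, added after seeing the data and without a value for all genes. Keeping the strongest boundary within 100 kb gave 2 genes with both flanks strong, since Neurog1 lost its weak flank. The share over all protein-coding genes under this setting is not given here, so this count has no background. Counting all gene types gave a median of 6.5 other genes. The CTCF consensus was at 0 of 16 flanks in the bin itself and at 12 in its looser form. With 500 bases on each side of the GENCODE start, 1 start a gene, CACGTG was at 1 of 6 promoters. In this window 17.2% of protein-coding genes had it. CACNAG was at 5 (83.3% of protein-coding genes) and TATAAA at 0 (21.1%). The start changed with the window, and TATAAA was lost with the second Hes6 start. The causes were not tested where the setting itself does not give them. Depth is unknown, so no value here could be weighed by it.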
